A study of Mus musculus with 16 samples.

Results

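The comparison concerns the 2 tissue compartments of the mouse stomach at E13.5 (E, embryonic day), epithelium and fibroblasts, and asks which genes, and in particular which ligands and receptors, were held apart by all epithelial gates. Its members are 10 of the 16 RNA-seq libraries of the series: every E13.5 epithelial library (n = 8) and both E13.5 fibroblast libraries (n = 2). All embryos carried the dual reporter labelled Sox2-EGFP; Gata4-td Tomato, with *EGFP* knocked into the *Sox2* locus and td Tomato into the *Gata4* locus, so no library came from mice without the reporters. EpCAM+ epithelial cells had been sorted by the reporters into Sox2hi (n = 3), Sox2midGata4mid (n = 2) and Gata4hi (n = 3) cells, and fibroblasts had been sorted by staining for PDGFRα from the proximal (n = 1) and the distal stomach (n = 1). The gates limit each group as a model: the epithelial groups are windows of reporter fluorescence, and a PDGFRα gate also takes any other PDGFRα-positive mesenchymal cell. How many embryos or litters went into a library is not given in the sources used here, so the p-values measure the spread between these libraries only, and with 1 library from each region the spread of the fibroblasts also holds the difference between the regions.

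The epithelium of the embryonic gut tube and the mesenchyme around it signal to each other. The epithelium releases hedgehog proteins that act on mesenchymal cells carrying Patched and GLI factors, while the mesenchyme releases FGFs, WNTs, R-spondins and BMPs together with secreted antagonists of these proteins. In the stomach, BARX1 and other mesenchymal transcription factors are known to shape which WNT antagonists the mesenchyme makes. A ligand and its receptor can therefore lie in opposite compartments, in the same compartment or in both.

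Expression is given in FPKM, a read count scaled to transcript length and to the number of mapped reads. The sort markers, which the gates fixed and which are no finding, separated the libraries as labelled. *Epcam* (ENSEMBL ENSMUSG00000045394.8, GRCm38 chr17:87635979-87651106), which encodes the epithelial adhesion molecule used as the sort marker, stood at 202 to 263 FPKM (median 233) in the epithelial libraries and at 2.37 FPKM in proximal and 4.95 FPKM in distal fibroblasts. *Pdgfra* (ENSEMBL ENSMUSG00000029231.15, GRCm38 chr5:75152292-75198215), the receptor used for the fibroblast sort, stood at 0.354 to 1.34 FPKM (median 0.57) in epithelium and at 166 and 217 FPKM in proximal and distal fibroblasts. Of the markers that no gate used, *Cdh1* (E-cadherin), *Krt8* and *Esrp1*, a splicing factor of epithelia, stayed low in fibroblasts. Relative to the epithelial mean, they reached at most 0.0339%, 0.23% and 0.0666% there. In the opposite direction, *Col1a1*, *Col3a1* and *Lum* of fibroblast matrix reached at most 0.443%, 0.411% and 0.204% of their fibroblast mean in any epithelial library. The difference of *Lum* was -5.67 without the proximal and -7.25 without the distal fibroblast library.

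*Dcn* (decorin) and *Twist1*, fixed here as fibroblast markers, were not low in every epithelial gate. *Dcn* stood at 76.2 ± 20.2 FPKM (SD, n = 3) in Sox2hi cells, at 4.58 and 10.2 FPKM in Sox2midGata4mid cells and at 0.679 ± 0.0774 FPKM (SD, n = 3) in Gata4hi cells, against 441 FPKM in proximal and 218 FPKM in distal fibroblasts. *Twist1*, a transcription factor of mesenchyme, stood at 4.78 ± 1.55 and 0.0604 ± 0.046 FPKM (SD, n = 3 each) in Sox2hi and Gata4hi cells and at 29.1 and 14.1 FPKM in proximal and distal fibroblasts. *Lum* was also higher in Sox2hi cells, at 0.198 ± 0.0544 against 0.0563 ± 0.0461 FPKM, but stayed under 1 FPKM in both, and *Col1a1* was 2.11 ± 1.25 FPKM in Sox2hi and 2.36 ± 0.546 FPKM in Gata4hi cells (SD, n = 3 each). *Dcn* and *Twist1* were both lower in epithelium (log2 difference -4.91 ± 1.68, adjusted p = 0.0369 and log2 difference -3.35 ± 0.82, adjusted p = 0.00761), but the adjusted p of *Dcn* became 0.221 without the proximal and 0.119 without the distal fibroblast library, and that of *Twist1* 0.104 without the proximal library. It became 0.0566 and 0.0531 for *Dcn* without Sox2midGata4mid replicate 1 or 2, 0.0568 on the TPM scale and 0.0582 with quantile normalization. *Vim* (vimentin) stood at 12.1 to 24.8 FPKM (median 14.3) in epithelium and at 387 and 461 FPKM in the fibroblasts.

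The reporter transcript *EGFP* was 161 to 247 FPKM (median 200.2) in epithelium and 7.93 FPKM in proximal and 9.71 FPKM in distal fibroblasts, which is 3.86% and 4.72% of its epithelial mean. *Sox2*, the gene whose locus carries the reporter, reached 0.264% and 0.022% of its epithelial mean in the same fibroblast libraries (0.193 and 0.0161 FPKM). The reporter and its host gene thus differed in how far they were held to the epithelium. *dTomato* stood at 9.36 to 317 FPKM (median 86.9) in epithelium and at 0.595 and 1.67 FPKM in proximal and distal fibroblasts; its adjusted p of 0.0179 became 0.141 without the proximal and 0.079 without the distal fibroblast library. In a fit of only the 4 libraries whose names begin with the stage, described below, the adjusted p was 0.0888 for *dTomato* and 0.152 for *Dcn*.

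**Figure D1:**
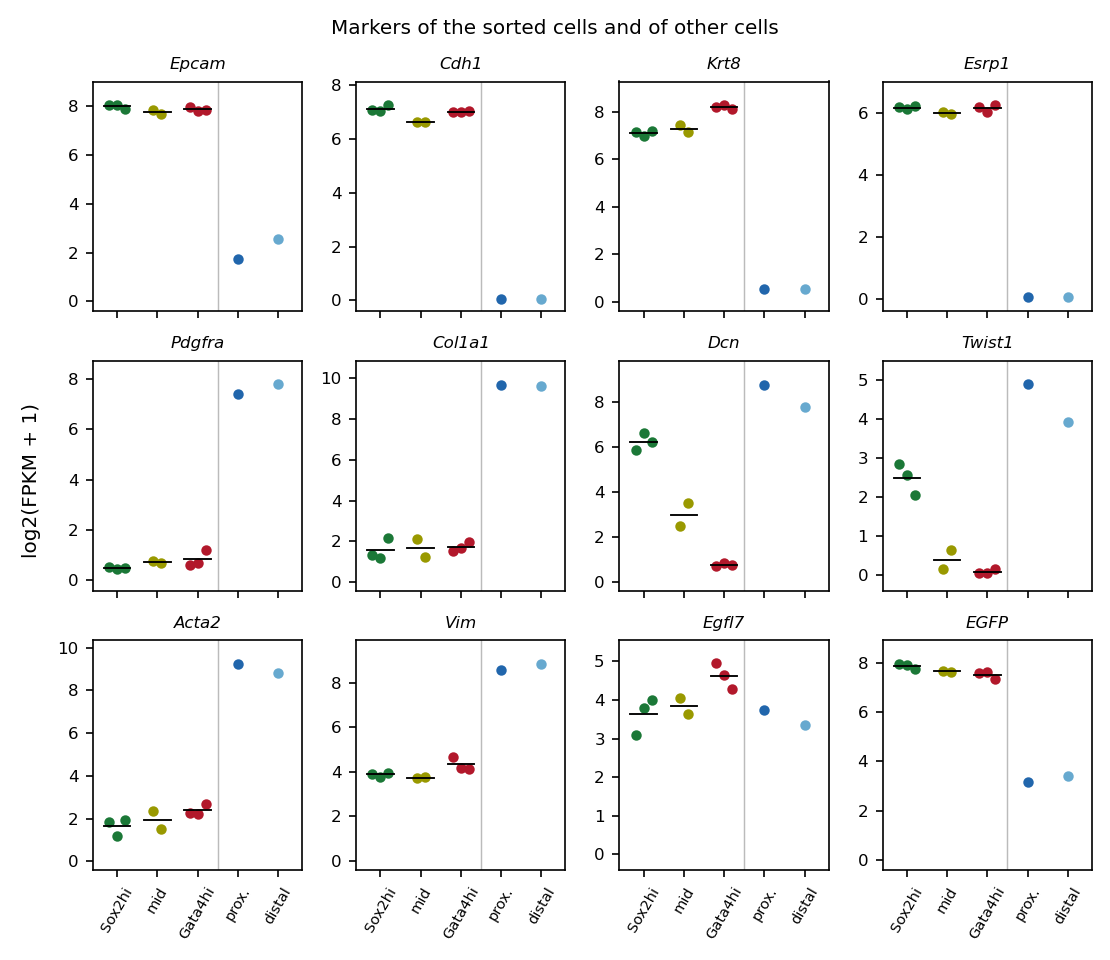
Markers of the sorted cells and of other cells in the 10 libraries. The vertical axes give log2(FPKM + 1), points are libraries of Sox2hi, Sox2midGata4mid (mid) and Gata4hi epithelium and of proximal and distal fibroblasts, and bars are group means where n is 2 or 3. *Dcn* and *Twist1* fall from Sox2hi to Gata4hi cells, whereas *Col1a1* is low in all 8 epithelial libraries.

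Across the libraries, FPKM values summed to 436296 to 545316 in epithelium and to 656588 and 618155 in proximal and distal fibroblasts, and the depth relative to Sox2hi replicate 1 was 0.719 to 1.07 in epithelium, 0.394 in proximal and 0.787 in distal fibroblasts. Pearson's correlation of log2(FPKM + 1) over genes was 0.891 to 0.954 between epithelial libraries, 0.952 between the fibroblast libraries and 0.731 to 0.772 between the compartments. Because FPKM sums were larger in fibroblasts, scaling every library to the same sum (TPM) moved the median log2 difference of all genes from -0.08 to 0.26. Small differences below are therefore relative to the FPKM scale. In such bulk libraries, fewer cells that use a gene and less of its RNA per cell cannot be told apart.

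Genes were tested where FPKM averaged 1 or more across the 10 libraries. Of 13502 such genes, 2452 (18.2%) were higher and 3280 (24.3%) lower in epithelium at an adjusted p under 0.05 (limma on log2(FPKM + 1), differences given with SE). A gene with all values of 1 compartment under 1 FPKM passed only by the other compartment, so its direction was all but fixed by this minimum. On the TPM scale 4353 genes were higher and 1873 lower, so that 69.9% of the calls were higher in epithelium against 42.8% on the FPKM scale. A stricter set had to be called, to show no overlap between the compartments and to be at least 2-fold apart (a difference of 1 in mean log2(FPKM + 1)) in each of the 3 gates. It held 966 genes higher (7.15%) and 1166 genes lower (8.64%) in epithelium and is named shared below. On the TPM scale it held 1586 and 891 genes. The counts rest partly on the proximal fibroblast library, without which 1446 genes were higher and 1708 lower, 881 and 956 of them shared. The column names of the libraries follow 2 styles, and style runs with compartment: both fibroblast libraries and 2 of the 8 epithelial libraries (1 Sox2hi, 1 Gata4hi) have names that begin with the stage, and the other 6 epithelial libraries are numbered. What the style stands for is not given in the sources used here, so for the other 6 libraries style and compartment cannot be told apart. Among the 4 stage-named libraries alone (2 against 2), 956 genes were higher and 1444 lower. There *Wnt7b* missed the minimum, and 17 of the 111 named genes were tested but no longer called. These 17 are each named beside their results. The smallest p of the exact permutation test (two-sided, 45 choices of 2 libraries) cannot fall below 0.0222 in this design.

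The largest shared differences toward the epithelium belonged to genes of junctions, keratins and membrane proteins. They were *Cldn6*, *Cldn7* and *Cldn4* (claudins of tight junctions), *Fxyd3* (a regulator of the sodium pump), *Mt2* (a metallothionein), *Krt19*, *Krt8* and *Krt7* (keratins of simple epithelia), *Cdh1*, *Shh*, *Foxa1* (a transcription factor of endoderm) and *Adgrg1* (an adhesion receptor), with log2 differences from 6.21 to 7.64. *Cldn6* stood at 185 to 302 FPKM (median 242) in epithelium and at 0.183 FPKM in proximal and 0.206 FPKM in distal fibroblasts (log2 difference 7.64 ± 0.17, adjusted p = 8.53e-10). *Cdh1* stood at 97.9 to 153 FPKM (median 129) against 0.0423 and 0.0298 FPKM (log2 difference 6.91 ± 0.16, adjusted p = 8.53e-10). All 29 listed genes of epithelial junctions and polarity passed the minimum and were higher in epithelium, all of them shared, with a median log2 difference of 4.69 against -0.08 over all genes tested. Of 10 keratins tested among 13 listed, 7 (70%) were higher and 1 (10%) lower, against 18.2% and 24.3% of all genes tested. Of 25 epithelial transcription factors tested among 28 listed, 21 (84%) were higher and none lower, among them *Grhl2* (log2 difference 4.99 ± 0.14, adjusted p = 3.04e-09). Without the proximal fibroblast library 13 of these transcription factors were called. *Krt8* and *Krt18* have processed copies in the genome, so their reads may have been split or shared in the counting.

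The largest shared differences toward the fibroblasts belonged to collagens and to transcription factors of gut mesenchyme. They were *Col3a1*, *Col1a1*, *Col1a2*, *Col6a2* and *Col6a1*, *Tgfbi* (a matrix protein), *Tcf21*, *Foxf1*, *Barx1* and *Snai2* (transcription factors), *Acta2* (smooth muscle actin) and *Pdgfra*, with log2 differences from -9.26 to -6.84. *Tcf21* stood at 0.0626 to 1.06 FPKM (median 0.468) in epithelium and at 292 FPKM in proximal and 264 FPKM in distal fibroblasts (log2 difference -7.61 ± 0.25, adjusted p = 6.60e-09). *Barx1* stood at 0.294 to 2.11 FPKM (median 0.66) against 169.7 and 375 FPKM (log2 difference -7.13 ± 0.37, adjusted p = 1.41e-07), with the higher of its fibroblast values in the distal library. Of 21 mesenchymal transcription factors tested among 37 listed, 17 (81%) were lower in epithelium and none higher (median -3.35). Of 31 collagens and matrix proteins tested among 32, 28 (90.3%) were lower and none higher (median -4.33). Of all genes tested, 24.3% were lower and 18.2% higher. The minimum was taken over 8 epithelial and 2 fibroblast libraries, so a gene made by fibroblasts alone had to reach about 5 FPKM there to be tested, and members that passed by their fibroblast values had to differ.

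Promoters of shared genes were read for short motifs, and a few are printed to show what these matches look like at genes that define each compartment. The E-box CACCTG, read on either strand as CACCTG or CAGGTG, is bound by several basic helix-loop-helix and zinc finger factors, among them the Snail and ZEB families, and ACCGGT is the core motif of Grainyhead-like factors such as GRHL2; the motifs do not overlap. Windows of 250 bases before to 50 bases after each RefSeq start (GRCm38.p6) were searched on both strands. The matches are in capitals. The promoters printed were chosen after their matches were seen. The following, of genes higher in epithelium, hold matches.
Epcam, chr17:87635729-87636028 (plus strand): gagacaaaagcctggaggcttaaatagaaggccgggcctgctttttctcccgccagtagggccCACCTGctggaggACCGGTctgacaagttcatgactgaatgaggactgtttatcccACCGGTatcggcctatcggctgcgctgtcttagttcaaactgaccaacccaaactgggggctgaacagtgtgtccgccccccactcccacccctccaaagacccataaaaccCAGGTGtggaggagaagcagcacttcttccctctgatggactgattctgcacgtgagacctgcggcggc
Cldn4, chr5:134946885-134947184 (minus strand): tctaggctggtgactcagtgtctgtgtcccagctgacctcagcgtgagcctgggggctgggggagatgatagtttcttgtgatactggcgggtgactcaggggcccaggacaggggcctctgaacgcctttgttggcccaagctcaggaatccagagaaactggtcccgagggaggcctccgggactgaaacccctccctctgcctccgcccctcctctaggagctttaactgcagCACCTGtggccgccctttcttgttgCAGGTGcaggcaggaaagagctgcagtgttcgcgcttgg
Cldn7, second listed start, chr11:69965171-69965470 (plus strand): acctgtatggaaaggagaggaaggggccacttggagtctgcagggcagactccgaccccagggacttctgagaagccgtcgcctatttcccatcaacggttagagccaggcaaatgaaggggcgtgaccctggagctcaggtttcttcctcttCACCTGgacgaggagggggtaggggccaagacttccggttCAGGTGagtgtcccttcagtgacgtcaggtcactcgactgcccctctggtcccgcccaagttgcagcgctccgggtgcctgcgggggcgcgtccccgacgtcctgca
Lama5, chr2:180225810-180226109 (minus strand): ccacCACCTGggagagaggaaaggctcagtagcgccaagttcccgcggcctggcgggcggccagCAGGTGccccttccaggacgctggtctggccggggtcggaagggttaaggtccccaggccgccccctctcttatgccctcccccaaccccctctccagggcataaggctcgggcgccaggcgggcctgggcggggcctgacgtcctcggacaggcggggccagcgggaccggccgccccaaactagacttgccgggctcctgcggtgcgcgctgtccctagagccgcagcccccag
Those of the following genes lower in epithelium hold none.
Col3a1, chr1:45311288-45311587 (plus strand): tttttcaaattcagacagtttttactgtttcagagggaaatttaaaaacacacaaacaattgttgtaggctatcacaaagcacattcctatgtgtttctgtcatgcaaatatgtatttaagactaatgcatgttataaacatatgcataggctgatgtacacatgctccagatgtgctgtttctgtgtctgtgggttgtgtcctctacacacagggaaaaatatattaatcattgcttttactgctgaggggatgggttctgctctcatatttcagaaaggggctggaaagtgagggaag
Tcf21, chr10:22820094-22820393 (minus strand): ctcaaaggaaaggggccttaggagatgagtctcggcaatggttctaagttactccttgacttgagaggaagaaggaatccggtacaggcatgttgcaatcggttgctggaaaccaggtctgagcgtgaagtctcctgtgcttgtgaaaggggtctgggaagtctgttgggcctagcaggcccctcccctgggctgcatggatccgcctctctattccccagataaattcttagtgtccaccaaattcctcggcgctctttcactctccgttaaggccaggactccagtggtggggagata

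The *Epcam* promoter held 2 E-boxes and 2 ACCGGT matches, and the printed promoters of *Cldn4*, *Cldn7* and *Lama5* held 2 E-boxes each. At the first listed start of *Cldn7* and at *Fxyd3*, also a shared higher gene, there was no match. The promoter of *Itga9*, a shared lower gene, held 2 E-boxes. The table held promoters of 631 of the 966 shared genes higher and of 799 of the 1166 shared genes lower in epithelium. Since each is under 80% of its set, a comparison of the sets is void, and the shares describe the matched promoters only. Among 859 promoters of shared higher genes 312 (36.3%) held the E-box, among 1058 of shared lower genes 141 (13.3%), among 9751 of the other genes tested 16.9%, and among all 32851 promoters 20.2%. Mean GC content was 60.6%, 61.4%, 61.2% and 53.8% in the same order. ACCGGT was in 2.91% and 2.55% of the promoters of shared higher and lower genes, in 3.34% of those of the other genes tested and in 2.33% of all. The related E-box CAGCTG, added after seeing the data, was in 16.2% and 18.7%, in 14.4% of the other genes tested and in 16.3% of all. A match describes the letters and is not a bound site, and several promoters of a gene can overlap.

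Ligands and receptors were spread over both compartments, with more of them toward the fibroblasts. Of 142 listed ligands 87 passed the minimum, and 20 of these (23.0%) were higher and 42 (48.3%) lower in epithelium, against 18.2% and 24.3% of all genes tested. The median log2 difference of the ligands was -0.84. Of 124 listed receptors 95 passed, and 23 (24.2%) were higher and 48 (50.5%) lower, with a median of -0.48. The receptors counted here include 13 hedgehog receptors, effectors and targets, all of them lower in epithelium. They also include the ubiquitin ligases *Znrf3* and *Rnf43*, both higher, and *Pdgfra*, which was fixed by the sort. Shared by all gates were 9 ligands higher and 37 lower, and 19 receptors higher and 34 lower. Of 12 secreted or decoy inhibitors tested among 20 listed, 6 were lower in epithelium and none higher. Ligands that missed the minimum while a fibroblast library reached 3 FPKM or more included *Fgf2* (3.91 and 4.81 FPKM in proximal and distal fibroblasts), *Fgf7* (5.59 and 0 FPKM) and *Wnt2b* (6.81 and 1.10 FPKM); these were chosen after their values were seen.

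**Figure D2:**
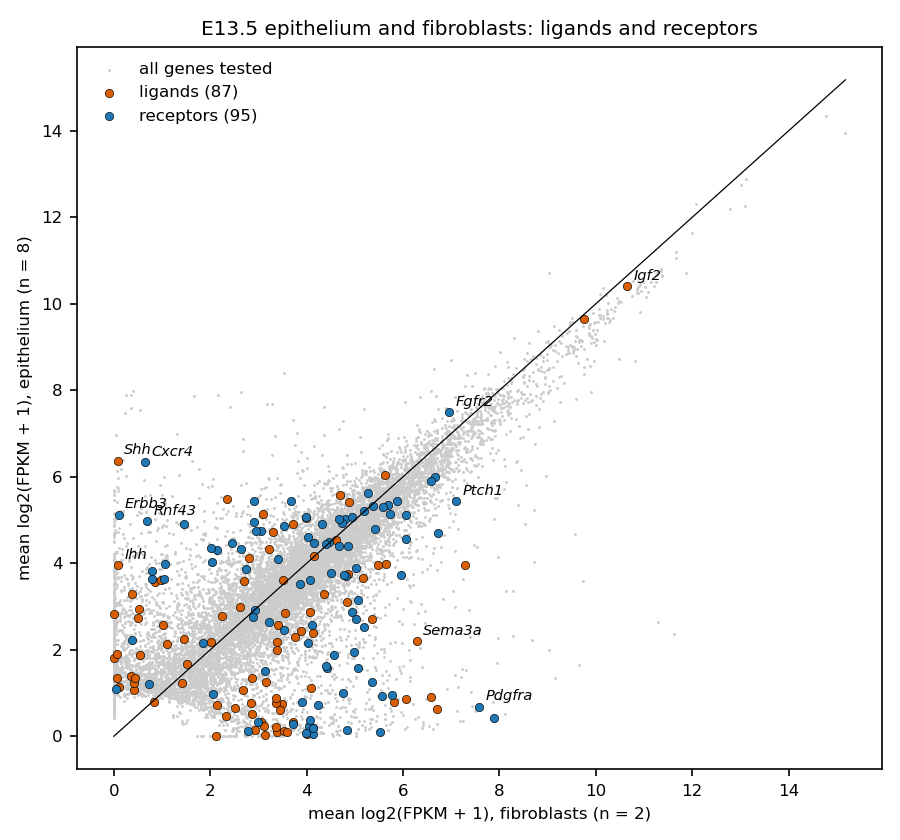
Mean log2(FPKM + 1) of 13502 genes in fibroblasts (n = 2, horizontal) and epithelium (n = 8, vertical), with the 87 ligands and 95 receptors tested in colour and the line of equal values. The receptors include hedgehog effectors and targets. *Shh*, *Cxcr4* and *Erbb3* lie near 0 on the fibroblast axis, *Pdgfra* near 0 on the epithelial axis, and *Igf2* close to the line.

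The hedgehog pathway was split between the compartments. *Shh* (ENSEMBL ENSMUSG00000002633.4, GRCm38 chr5:28456815-28467256), which encodes the ligand Sonic hedgehog, stood at 42 to 143 FPKM (median 94.7) in epithelium and at 0.0901 FPKM in proximal and 0.0338 FPKM in distal fibroblasts (log2 difference 6.29 ± 0.47, adjusted p = 2.06e-06). All 8 epithelial values lay above both fibroblast values, as was true of 20.7% of all genes tested, while 26.5% of genes lay below both. *Ihh*, which encodes Indian hedgehog, stood at 0.871 ± 0.20 FPKM in Sox2hi and 96.1 ± 11 FPKM in Gata4hi cells (SD, n = 3 each) and at 0 and 0.132 FPKM in proximal and distal fibroblasts; it was not called in the joint comparison (log2 difference 3.86 ± 1.74, adjusted p = 0.0977), but was with Gata4hi cells alone against the fibroblasts (adjusted p = 1.05e-05), with a pseudocount of 0.1 (0.0288) and with gate means (5.75e-07).

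All 13 listed hedgehog receptors, effectors and targets were tested and all were lower in epithelium, 11 of them shared, with a median log2 difference of -3.74. On the TPM scale 11 were lower. Of all genes tested, 24.3% were lower and 8.64% shared lower. Members whose epithelial values all stayed under 1 FPKM, such as *Foxf1*, passed the minimum only by their fibroblast values, so their direction was fixed by the minimum. *Foxf1* (ENSEMBL ENSMUSG00000042812.5, GRCm38 chr8:121084386-121088144), a forkhead transcription factor of gut mesenchyme and a hedgehog target, stood at 0.0441 to 0.715 FPKM (median 0.382) in epithelium and at 214 FPKM in proximal and 259.8 FPKM in distal fibroblasts (log2 difference -7.47 ± 0.21, adjusted p = 3.04e-09). *Foxf2* and *Foxl1*, its relatives, followed with -5.41 ± 0.17 and -4.07 ± 0.17, and the co-receptor *Gas1* with -4.81 ± 0.41. *Ptch1*, the receptor and itself a hedgehog target, was the member least held to the fibroblasts among those named: it stood at 24.1 to 65.9 FPKM (median 52) in epithelium and at 135.5 and 138 FPKM (log2 difference -1.67 ± 0.39, adjusted p = 0.00614), with an adjusted p of 0.0578 without the proximal and 0.0513 without the distal fibroblast library. Among epithelial gates it was 58.2 ± 8.34 FPKM in Sox2hi and 25.5 ± 1.98 FPKM in Gata4hi cells (SD, n = 3 each). *Gli1*, the transcriptional effector, chosen after its values were seen, stood at 0.143 to 3.15 FPKM (median 0.758) in epithelium and at 24.6 and 27.4 FPKM in the fibroblasts (log2 difference -3.74 ± 0.52, adjusted p = 0.000232). The epithelium thus held the ligand with *Ptch1* transcripts but little *Gli1*.

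**Figure D3:**
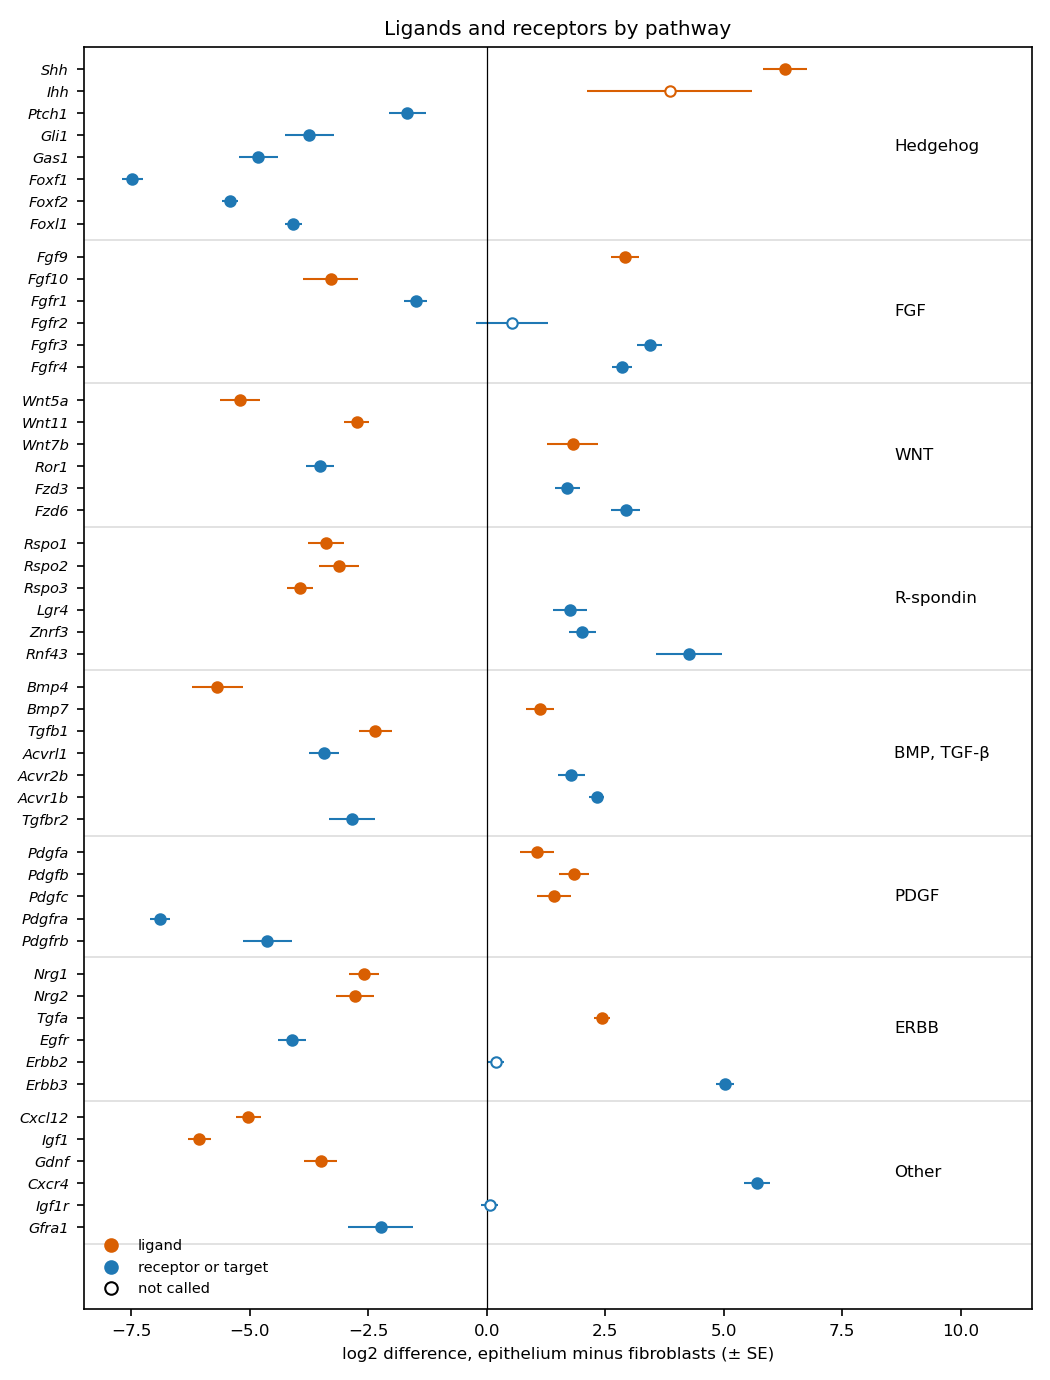
Log2 difference (epithelium minus fibroblasts, horizontal axis, bars ± SE from limma, n = 8 against 2) of named ligands and of receptors or targets, grouped by pathway; open circles were not called. Ligand and receptor lie on opposite sides for *Shh* and its targets, for R-spondins and *Lgr4*, *Znrf3* and *Rnf43*, and for *Cxcl12* and *Cxcr4*. The same holds for *Pdgfa*, *Pdgfb* and *Pdgfc* against *Pdgfrb*, while *Pdgfra* was fixed by the sort.

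Fibroblast growth factors were made on both sides. *Fgf9* stood at 5.47 to 13.4 FPKM (median 9.66) in epithelium and at 0.426 FPKM in proximal and 0.179 FPKM in distal fibroblasts (log2 difference 2.91 ± 0.30, adjusted p = 2.27e-05), whereas *Fgf10* was 0 to 0.23 FPKM (median 0.0709) in epithelium and 2.53 FPKM in proximal and 30.1 FPKM in distal fibroblasts (log2 difference -3.29 ± 0.57, adjusted p = 0.00104). The fibroblast value of *Fgf10* came mainly from the distal library, and its log2 difference was -4.86 without the proximal library; without the distal library the gene missed the minimum. The gene passed the minimum only by its fibroblast values, so its direction was fixed by the minimum. Among the stage-named libraries alone its adjusted p was 0.106. FGF10 is known to signal through the epithelial form of FGFR2, and FGF9 mainly through receptors on mesenchyme. Of 18 listed FGF ligands 4 were tested.

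The 5 FGF receptors were divided, with 3 (60%) higher, 1 (20%) lower and 1 not called, against 18.2% higher and 24.3% lower of all genes tested. *Fgfr3* stood at 20.9 to 40.4 FPKM (median 27.1) in epithelium and at 2.7 and 1.04 FPKM in proximal and distal fibroblasts (log2 difference 3.44 ± 0.27, adjusted p = 3.03e-06). *Fgfr4* stood at 8.55 to 15.2 FPKM (median 11.3) against 0.84 and 0.612 FPKM (log2 difference 2.85 ± 0.20, adjusted p = 1.48e-06). *Fgfr1* was the member lower in epithelium, at 14.9 to 34.1 FPKM (median 22.8) against 80.8 and 53.7 FPKM (log2 difference -1.50 ± 0.25, adjusted p = 0.000714). *Fgfr2* was high in both compartments: it was 413 ± 63.3 FPKM in Sox2hi cells, 199 and 224 FPKM in Sox2midGata4mid cells, 71 ± 4.41 FPKM in Gata4hi cells (SD, n = 3 each for Sox2hi and Gata4hi) and 125 FPKM in proximal and 122 FPKM in distal fibroblasts. It was not called over all gates (log2 difference 0.54 ± 0.77, adjusted p = 0.6), was higher in Sox2hi cells alone (1.72, adjusted p = 0.000452) and lower in Gata4hi cells alone (-0.80, adjusted p = 0.00148). The FPKM of a gene sums its isoforms, so the epithelial and mesenchymal splice forms of *Fgfr2* cannot be told apart here.

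WNT ligands were called in both directions. Of 7 tested among 19 listed, 3 (42.9%) were lower and 1 (14.3%) higher in epithelium, against 24.3% and 18.2% of all genes tested. Their median log2 difference was -0.047, against -0.077 over all genes tested. *Wnt11* passed the minimum only by its fibroblast values and missed it without the proximal library. *Wnt7b* passed it only by its epithelial values, so the directions of *Wnt11* and *Wnt7b* were fixed by the minimum. *Wnt5a*, a ligand of non-canonical WNT signalling, stood at 0.10 to 1.92 FPKM (median 0.874) in epithelium and at 90.3 FPKM in proximal and 48 FPKM in distal fibroblasts (log2 difference -5.20 ± 0.42, adjusted p = 4.09e-06). *Wnt11* stood at 0.0713 to 0.757 FPKM (median 0.225) against 10.2 and 5.22 FPKM (log2 difference -2.74 ± 0.27, adjusted p = 1.55e-05). *Wnt7b* was the ligand higher in epithelium, at 0.924 to 7.13 FPKM (median 2.03), and was listed at 0 in both fibroblast libraries (log2 difference 1.81 ± 0.53, adjusted p = 0.0195; adjusted p = 0.118 without the proximal and 0.102 without the distal fibroblast library). *Ror1*, a receptor of WNT5A, was on the side of its ligand, at 0.32 to 1.49 FPKM (median 0.537) in epithelium and 13.9 and 23 FPKM in proximal and distal fibroblasts (log2 difference -3.51 ± 0.29, adjusted p = 4.03e-06), whereas the Frizzled receptors *Fzd6* (log2 difference 2.93 ± 0.30, adjusted p = 2.26e-05) and *Fzd3* (log2 difference 1.70 ± 0.26, adjusted p = 0.000442) were higher in epithelium. For *Fzd3* the adjusted p was 0.0565 among the stage-named libraries alone, where *Wnt7b* missed the minimum.

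R-spondins, secreted proteins that raise WNT signalling, were lower in epithelium in all 3 cases tested. All 3 passed the minimum only by their fibroblast values, so this direction was fixed by the minimum. Of 4 genes tested among 5 listed as their receptors 3 (75%) were higher and none lower, against 18.2% and 24.3% of all genes tested. *Rspo3* stood at 0 to 0.146 FPKM (median 0.0156) in epithelium and at 23.3 FPKM in proximal and 9.52 FPKM in distal fibroblasts (log2 difference -3.94 ± 0.27, adjusted p = 1.19e-06). *Rspo1* stood at 0.0198 to 0.246 FPKM (median 0.0953) against 21.5 and 4.88 FPKM (log2 difference -3.39 ± 0.38, adjusted p = 4.62e-05) and *Rspo2* at 0 to 0.113 FPKM (median 0) against 17.6 and 3.13 FPKM (log2 difference -3.11 ± 0.42, adjusted p = 0.000176). All 3 were higher in the proximal than in the distal library. Without the distal library the log2 differences were -4.54, -4.36 and -4.19, and that of *Rspo3* was -3.33 without the proximal library, where *Rspo1* and *Rspo2* missed the minimum. *Lgr4*, the receptor, stood at 26.7 to 61.3 FPKM (median 39.4) in epithelium and at 7.15 and 18.9 FPKM (log2 difference 1.76 ± 0.35, adjusted p = 0.00257), but its log2 difference without the proximal library was 1.119 (adjusted p = 0.0697) and without the distal library 2.40. *Znrf3* and *Rnf43*, membrane ubiquitin ligases that clear Frizzled receptors and are inhibited by R-spondins, were higher in epithelium as well: *Znrf3* stood at 13.46 to 28.5 FPKM (median 23.9) against 4.72 and 4.19 FPKM (log2 difference 2.02 ± 0.29, adjusted p = 0.00028) and *Rnf43* at 10.9 to 64.5 FPKM (median 36.7) against 1.51 and 0.0463 FPKM (log2 difference 4.28 ± 0.70, adjusted p = 0.000679, or 4.91 without the proximal and 3.65 without the distal library). *Lgr5*, a receptor that marks stem cells in the adult gut, was not called, at 0.472 to 8.97 FPKM in epithelium against 0.692 and 0 FPKM (log2 difference 1.84 ± 0.81, adjusted p = 0.0906). Of the LGR receptors *Lgr4* was thus the only member called, and it was also present in fibroblasts. Among the stage-named libraries alone the adjusted p was 0.0621 for *Rspo2* and 0.0609 for *Lgr4*.

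Secreted WNT antagonists that were called lay on the fibroblast side. Of 5 tested among 10 listed, 4 (80%) were lower in epithelium, none was higher and 1 was not called. Of all genes tested, 24.3% were lower and 18.2% higher. *Sfrp1* stood at 0.273 to 6.61 FPKM (median 0.797) in epithelium and at 74.1 FPKM in proximal and 243 FPKM in distal fibroblasts (log2 difference -5.68 ± 0.81, adjusted p = 0.000274), with its higher value in the distal library, and *Sfrp2* at 1.156 to 4.08 FPKM (median 1.88) against 100.1 and 39.7 FPKM (log2 difference -4.39 ± 0.37, adjusted p = 5.06e-06), with its higher value in the proximal library. Without the proximal library the differences were -6.53 and -3.73, and without the distal library -4.83 and -5.04. *Dkk2*, a Dickkopf antagonist, stood at 0 to 0.12 FPKM (median 0.00782) against 4.8 and 10.1 FPKM (log2 difference -2.97 ± 0.25, adjusted p = 4.64e-06). It passed the minimum only by its fibroblast values, so its direction was fixed by the minimum. The fibroblasts thus held R-spondins and antagonists together.

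Of 7 BMP and GDF ligands tested among 13 listed, 5 (71.4%) were lower and 2 (28.6%) higher in epithelium, against 24.3% and 18.2% of all genes tested, and the number higher was 0 without the proximal library. *Bmp4* stood at 0.125 to 4.23 FPKM (median 0.528) in epithelium and at 131 FPKM in proximal and 68.9 FPKM in distal fibroblasts (log2 difference -5.68 ± 0.53, adjusted p = 1.21e-05). *Bmp7* stood at 11.9 to 28.1 FPKM (median 21.3) against 8.13 and 8.45 FPKM (log2 difference 1.122 ± 0.29, adjusted p = 0.0112; adjusted p = 0.0912 without the proximal and 0.0677 without the distal fibroblast library). *Fst*, which encodes follistatin, a secreted antagonist of activins and BMPs, stood at 0 to 0.551 FPKM (median 0.223) in epithelium and at 170.2 and 61.7 FPKM (log2 difference -6.41 ± 0.32, adjusted p = 1.13e-07; -5.69 without the proximal and -7.14 without the distal library). Of 7 BMP antagonists tested *Fst* and *Bambi*, a decoy receptor, were lower (28.6%, near the 24.3% of all genes tested) and 5 were not called. Receptors of the family were divided. *Acvrl1* (ALK1; log2 difference -3.44 ± 0.31, adjusted p = 9.40e-06) and *Tgfbr2* (log2 difference -2.84 ± 0.49, adjusted p = 0.000951) were lower in epithelium, and the activin receptors *Acvr1b* (log2 difference 2.32 ± 0.15, adjusted p = 7.38e-07) and *Acvr2b* (log2 difference 1.78 ± 0.29, adjusted p = 0.000623; 1.18 without the proximal and 2.39 without the distal library) higher. *Tgfb1* itself was low in epithelium, at 0.091 to 1.57 FPKM (median 0.204) against 7.4 and 5.26 FPKM in the fibroblasts (log2 difference -2.35 ± 0.35, adjusted p = 0.000399). Among the stage-named libraries alone the adjusted p was 0.0503 for *Bmp7* and 0.0954 for *Acvr2b*.

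The platelet-derived growth factor genes *Pdgfa*, *Pdgfb* and *Pdgfc* were higher in epithelium and *Pdgfrb*, a receptor that no gate used, in fibroblasts. *Pdgfa* stood at 21.8 to 51.3 FPKM (median 27.3) in epithelium and at 14.7 FPKM in proximal and 15.2 FPKM in distal fibroblasts (log2 difference 1.06 ± 0.36, adjusted p = 0.0349), *Pdgfc* at 17.9 to 42.1 FPKM (median 20.2) against 6.8 and 11.6 FPKM (log2 difference 1.42 ± 0.37, adjusted p = 0.0102) and *Pdgfb* at 1.46 to 4.54 FPKM (median 2.7) against 0 and 0.087 FPKM (log2 difference 1.84 ± 0.32, adjusted p = 0.000925). The adjusted p of *Pdgfa* was 0.178 without the proximal and 0.14 without the distal fibroblast library, and that of *Pdgfc* was 0.152 without the proximal library. Among the stage-named libraries alone no PDGF ligand was called, with an adjusted p of 0.122 for *Pdgfa*, 0.0697 for *Pdgfb* and 0.0745 for *Pdgfc*. *Pdgfrb* stood at 0.0709 to 3.06 FPKM (median 0.581) in epithelium and at 39.4 and 53.9 FPKM in proximal and distal fibroblasts (log2 difference -4.63 ± 0.51, adjusted p = 4.37e-05), while the difference of *Pdgfra* (-6.89 ± 0.21) follows from the sort. *Nrp1*, a co-receptor of VEGF and semaphorins, was lower in epithelium (log2 difference -2.68 ± 0.38, adjusted p = 0.000281). Of 8 PDGF and VEGF ligands tested 4 (50%) were higher and 3 (37.5%) lower in epithelium, against 18.2% and 24.3% of all genes tested. Only 1 of the higher ligands was shared by all gates, and 1 of the 8 was not called. The 4 receptors tested were lower, but *Pdgfra* is among them and was fixed by the sort, which leaves *Pdgfrb*, *Nrp1* and *Nrp2*. Without the proximal library 1 of the 8 ligands was higher.

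The ERBB family was split in both directions. The neuregulins *Nrg1* and *Nrg2*, ligands of ERBB3 and ERBB4, were higher in fibroblasts: *Nrg1* stood at 0.215 to 1.45 FPKM (median 0.806) in epithelium and at 12 FPKM in proximal and 7.12 FPKM in distal fibroblasts (log2 difference -2.59 ± 0.32, adjusted p = 8.64e-05). *Nrg2* stood at 0 to 0.598 FPKM (median 0.0241) against 13.9 and 2.88 FPKM (log2 difference -2.77 ± 0.41, adjusted p = 0.00034; -3.74 without the distal library). *Erbb3* was on the other side, at 28.6 to 43.5 FPKM (median 30.6) in epithelium and 0.082 and 0.0667 FPKM in the fibroblasts (log2 difference 5.02 ± 0.19, adjusted p = 1.69e-08). For the EGF receptor the order was the reverse, with the ligand *Tgfa* at 5.83 to 8.69 FPKM (median 6.23) in epithelium against 0.557 and 0.325 FPKM (log2 difference 2.42 ± 0.17, adjusted p = 1.19e-06) and *Egfr* at 0.478 to 2.52 FPKM (median 1.33) against 36.5 and 44.2 FPKM (log2 difference -4.10 ± 0.30, adjusted p = 1.96e-06). *Erbb2*, the co-receptor of the family, was in both compartments at 23.8 to 38.8 FPKM (median 28.7) and 23.5 and 28.2 FPKM and was not called (log2 difference 0.19 ± 0.19, adjusted p = 0.446), except on the TPM scale (0.55, adjusted p = 0.0122) and with Gata4hi cells alone (0.46, adjusted p = 0.0369). *Nrg2* passed the minimum only by its fibroblast values, so its direction was fixed by the minimum. Among the stage-named libraries alone *Nrg2* was not called (adjusted p = 0.0828).

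**Figure D4:**
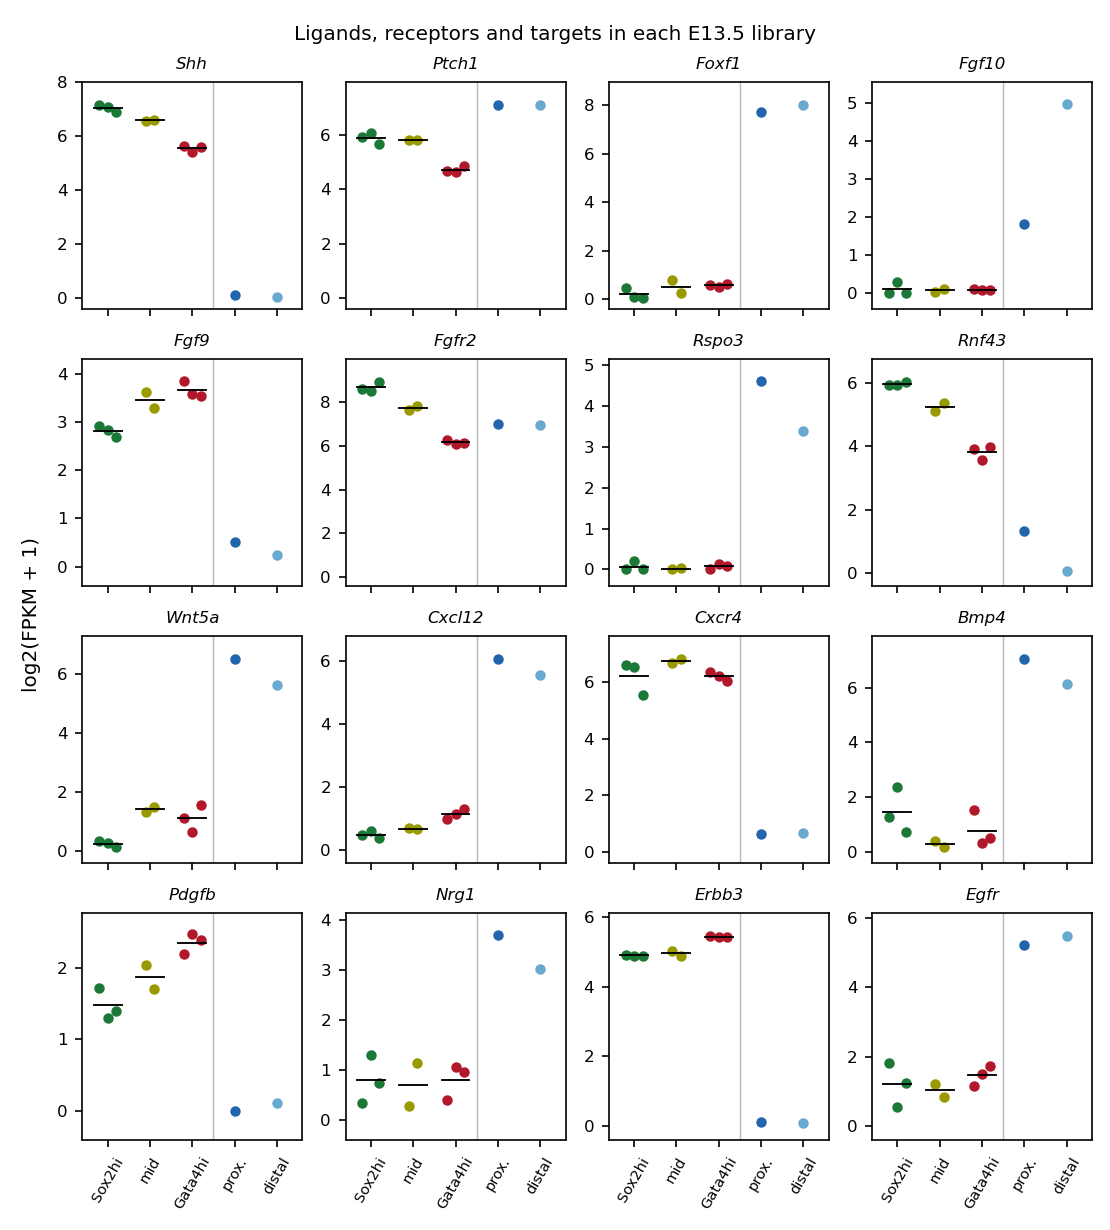
Log2(FPKM + 1) of 16 ligands, receptors and targets in each of the 10 libraries (points), with group means as bars where n is 2 or 3; the grey line parts epithelial gates from fibroblasts. *Fgfr2* is the gene shown whose epithelial gates lie on both sides of the fibroblasts, and *Fgf10* differs most between proximal and distal fibroblasts.

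*Cxcl12* and its receptor lay in opposite compartments. *Cxcl12* (ENSEMBL ENSMUSG00000061353.11, GRCm38 chr6:117168535-117181367) stood at 0.294 to 1.48 FPKM (median 0.606) in epithelium and at 65.8 FPKM in proximal and 46 FPKM in distal fibroblasts (log2 difference -5.03 ± 0.26, adjusted p = 1.45e-07), and *Cxcr4* (ENSEMBL ENSMUSG00000045382.6, GRCm38 chr1:128588199-128592293) at 45.1 to 112 FPKM (median 85.9) against 0.52 and 0.596 FPKM (log2 difference 5.71 ± 0.28, adjusted p = 8.59e-08). *Igf1*, insulin-like growth factor 1, was on the fibroblast side at 0.197 to 1.26 FPKM (median 0.574) and 121 and 88.1 FPKM (log2 difference -6.06 ± 0.24, adjusted p = 2.36e-08), but its receptor *Igf1r* was not called at 15.9 to 26.9 FPKM (median 21.2) and 18.1 and 22.1 FPKM (log2 difference 0.06 ± 0.17, adjusted p = 0.796). *Igf2* was abundant in both compartments, at 1139 to 1672 FPKM (median 1374) and 1609 and 1596 FPKM, and its direction changed with the scaling: the log2 difference was -0.25 ± 0.15 on the FPKM scale, 0.125 on the TPM scale and 0.30 (adjusted p = 0.0162) after quantile normalization.

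*Met*, the receptor of hepatocyte growth factor, was higher in epithelium, at 9.51 to 25 FPKM (median 15.3) against 3.57 and 2.66 FPKM in proximal and distal fibroblasts (log2 difference 2.005 ± 0.28, adjusted p = 0.000233); its ligand *Hgf* stayed below the minimum at 1.87 and 1.13 FPKM in the fibroblasts. *Gdnf*, a ligand of enteric neural crest cells, stood at 0.0192 to 0.13 FPKM (median 0.0612) in epithelium and at 5.72 and 20.9 FPKM (log2 difference -3.50 ± 0.34, adjusted p = 1.69e-05; -4.35 without the proximal library). Its co-receptor *Gfra1* was also higher in fibroblasts, at 4.28 to 34.5 FPKM (median 9.67) against 46.6 and 80.2 FPKM (log2 difference -2.24 ± 0.68, adjusted p = 0.0225; adjusted p = 0.079 without the proximal and 0.173 without the distal fibroblast library). *Ddr2*, a receptor of fibrillar collagen, lay with the collagens in fibroblasts (log2 difference -4.69 ± 0.19, adjusted p = 2.83e-08). *Gdnf* passed the minimum only by its fibroblast values, so its direction was fixed by the minimum. *Gfra1* was not called among the stage-named libraries alone (adjusted p = 0.107).

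Contact and guidance receptors were divided within families. *Notch1* was higher in epithelium, at 18.7 to 44.6 FPKM (median 32.1) against 5.1 and 8.35 FPKM (log2 difference 2.03 ± 0.28, adjusted p = 0.000194). The Eph receptors *Epha1* (log2 difference 3.02 ± 0.17, adjusted p = 2.14e-07) and *Epha2* (log2 difference 2.60 ± 0.32, adjusted p = 8.82e-05) were higher and *Epha3* (log2 difference -3.93 ± 0.17, adjusted p = 3.70e-08) lower in epithelium. Of 8 ephrins tested 5 (62.5%) were lower and none higher (1 higher on the TPM scale), against 24.3% and 18.2% of all genes tested. *Sema3a*, a secreted semaphorin, was 12.1 ± 1.56 FPKM in Sox2hi and 0.975 ± 0.396 FPKM in Gata4hi cells (SD, n = 3 each) against 79.5 and 74.6 FPKM in the fibroblasts (log2 difference -4.08 ± 0.86, adjusted p = 0.00335). *Sema3c* ran the other way, at 14 ± 0.758 and 105 ± 5.38 FPKM (SD, n = 3 each) against 4.14 and 4.02 FPKM (log2 difference 3.14 ± 0.87, adjusted p = 0.015; adjusted p = 0.101 without the proximal and 0.0902 without the distal fibroblast library). Among plexins, the receptors of semaphorins, *Plxnb1* was higher (log2 difference 2.53 ± 0.24, adjusted p = 1.36e-05) and *Plxnd1* lower (log2 difference -3.49 ± 0.46, adjusted p = 0.000148) in epithelium. Among the stage-named libraries alone the adjusted p was 0.066 for *Sema3a* and 0.111 for *Sema3c*.

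Genes of retinoic acid handling were called in both directions. *Aldh1a2*, which makes retinoic acid, stood at 0.179 to 8.69 FPKM (median 4.89) in epithelium and at 31 FPKM in proximal and 73.8 FPKM in distal fibroblasts (log2 difference -3.60 ± 0.88, adjusted p = 0.00771; log2 difference -4.22 without the proximal library, and -2.99 with an adjusted p of 0.0963 without the distal library). *Crabp1*, an intracellular binding protein of retinoic acid, lay on the same side (log2 difference -5.51 ± 0.28, adjusted p = 1.37e-07). *Rbp4*, the carrier of retinol, was higher in epithelium, at 18.2 to 52.8 FPKM (median 25.7) against 2.29 and 1.06 FPKM (log2 difference 3.54 ± 0.35, adjusted p = 2.02e-05). Of 16 members tested among 19 listed, 2 (12.5%) were higher, 6 (37.5%) lower and 8 not called, against 18.2% and 24.3% of all genes tested. Without the proximal library 3 were lower, and *Aldh1a2* was not called among the stage-named libraries alone (adjusted p = 0.0595).

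The laminins and integrins differed by chain. *Lama5*, a laminin chain of epithelial basement membranes, stood at 47.2 to 72.9 FPKM (median 54.8) in epithelium and at 1.93 and 3.34 FPKM in proximal and distal fibroblasts (log2 difference 4.001 ± 0.17, adjusted p = 3.88e-08). *Lama2*, a chain of muscle and mesenchyme, stood at 0.0311 to 0.312 FPKM (median 0.127) against 15.1 and 21.9 FPKM (log2 difference -4.06 ± 0.20, adjusted p = 1.01e-07). *Lama2* passed the minimum only by its fibroblast values, so its direction was fixed by the minimum. Of 18 basement membrane genes tested 7 (38.9%) were higher and 6 (33.3%) lower, against 18.2% and 24.3% of all genes. The laminin receptor *Itga6* stood at 24.7 to 94.7 FPKM (median 40.8) against 0.911 and 1.116 FPKM (log2 difference 4.56 ± 0.54, adjusted p = 6.54e-05), and *Itgb6* was higher as well (log2 difference 3.54 ± 0.47, adjusted p = 0.000157). *Itga8* (log2 difference -4.998 ± 0.30, adjusted p = 4.33e-07) and *Itga9* (log2 difference -4.58 ± 0.25, adjusted p = 2.02e-07) were among the integrin chains lower in epithelium. Of 14 integrin chains tested 4 (28.6%) were higher and 6 (42.9%) lower.

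Markers of other cells were read in the same libraries. All 9 smooth muscle genes tested were lower in epithelium, and the summed level of the 10 listed genes was 7.42 to 19.2 FPKM in epithelium against 1446 and 1112 FPKM in proximal and distal fibroblasts. *Acta2* stood at 602 and 454 FPKM there, *Actg2* at 173 and 123 FPKM and *Myh11*, a marker of differentiated muscle chosen after its values were seen, at 29.3 and 30.8 FPKM. The PDGFRα-sorted libraries thus held transcripts of smooth muscle beside those of fibroblasts, and their part in the differences was not tested. Endothelial markers summed to 11.1 to 32.3 FPKM in epithelium and 15.9 and 11.99 FPKM in the fibroblasts, mostly from *Egfl7* with 7.57 to 29.9 FPKM in epithelium, and had *Kdr*, *Tie1*, *Emcn*, *Cldn5* and *Sox17* under 0.5 FPKM in all 10 libraries. Blood markers summed to 1.83 to 5.65 FPKM in epithelium and 14.0 and 3.96 FPKM in the fibroblasts, and enteric neural markers to 19.9 to 65.1 FPKM against 63.0 and 97.7 FPKM with *Sox10* and *Phox2a* under 0.5 FPKM throughout. Mesothelial markers, a list that holds *Krt19* and *Aldh1a2*, summed to 141 to 254 FPKM against 35.4 and 81.7 FPKM, with *Upk3b*, *Lrrn4* and *Muc16* under 0.5 FPKM. Of 23 cell cycle genes 18 were not called, 4 were lower and 1, *Mki67* (a marker of cycling cells), was higher in epithelium (log2 difference 0.42 ± 0.14, adjusted p = 0.0345; adjusted p = 0.201 without the proximal and 0.112 without the distal fibroblast library). Its adjusted p was also 0.0541, 0.0523 and 0.0516 without Sox2hi replicate 1, Sox2midGata4mid replicate 2 or Gata4hi replicate 3, 0.0631 among the stage-named libraries alone, and 5 cell cycle genes were higher on the TPM scale. Of all genes tested, 18.2% were higher and 24.3% lower in epithelium, against 4.3% and 17.4% of the cell cycle genes.

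The 6 libraries of other stages, which took no part in the comparison, were set beside it as single libraries. Their epithelium was of E11.5 only and their fibroblasts of E15.5 and E17.5 only, so stage and compartment cannot be told apart in them. Of the 966 shared genes higher in epithelium, 861 (89.1%) were above all 4 fibroblast libraries of E15.5 and E17.5 in both E11.5 epithelial libraries, against 39.8% of all genes tested. Of the 1166 shared lower genes, 999 (85.7%) were below all 4, against 20.4%. *Shh* stood at 83 and 51.8 FPKM in E11.5 Sox2hi and Gata4hi cells and at 0.0451 to 0.0941 FPKM in the later fibroblasts, and *Cxcr4* at 56.7 and 73.9 FPKM against 0.124 to 0.769 FPKM. *Igf1* stood at 0.258 and 1.31 FPKM against 176 to 359.7 FPKM, so these genes were also apart in the libraries of other stages. Of the 105 named genes called at E13.5, 95 were apart in the same direction in these libraries and 10 were not. The 95 were 40 genes higher and 55 lower in epithelium, and of all genes tested 39.8% and 20.4% were apart in these directions. Most of the named genes had been picked for large differences at E13.5. The 10 were *Bmp7*, *Fgf9*, *Fgfr4*, *Lgr4*, *Met*, *Mki67*, *Notch1* and *Sema3c*, higher in epithelium at E13.5, and *Crabp1* and *Gfra1*, lower. *Fgfr4* was 9.09 and 9.33 FPKM against 3.27 to 16.9 FPKM, and *Lgr4* 8.09 and 25.4 FPKM against 5.19 to 11.1 FPKM. *Fgf9* was 3.27 and 9.15 FPKM against 0.119 to 10.01 FPKM, the highest of these in distal fibroblasts of E17.5. *EGFP* stood at 0.158 to 4.41 FPKM in the later fibroblasts. No test was made on single libraries.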

How the data were processed

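RNA was measured by polyA-selected, stranded RNA-seq with single reads in sorted cells. The authors deposited FPKM values, reads scaled to transcript length and library size. Adapters were trimmed by cutadapt 1.16, reads were aligned to mm10 (GRCm38) by HISAT2 2.1.0, and Cufflinks 2.2.1 gave the values; the strand setting and the normalization mode are not given in the sources used here. Of 53772 entries 53711 genes were kept. The table holds no counts, so only relative depth was read from low values and no detection limit can be given. On log2(FPKM + 1), epithelium (n = 8) was tested against fibroblasts (n = 2) by limma 3.58.1 (R 4.3.3; mean-variance trend; residual degrees of freedom 8, prior 2.42), and p was adjusted after Benjamini-Hochberg over the 13502 genes averaging 1 FPKM or more. For RNA-seq the paper names no test of single genes. Single values were also tested by an exact permutation test over 45 choices. Fold changes on this scale understate those of low genes. The fit was tested on simulated data. Named are the 12 largest shared differences each way at 20 FPKM or more, from each list up to 4 called members each way and 3 not called, the highest ligands and receptors in each compartment, the sort markers and the reporters; the cell type markers were a list of their own. Predicted genes, pseudogenes and symbols on 2 rows were passed over. The members, lists and tests were chosen with earlier results of these data known. Alternatives were other pseudocounts, filters, scalings, gate means, no trend, libraries of 1 label style, and each library left out. Promoter sequences are from RefSeq (GRCm38.p6). Genes on antisense or overlapping transcripts were not separated.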

Additional observations from a re-analysis of the deposited data

Results flagged for a closer look

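Some genes whose compartment difference is given above also differed between the epithelial gates, tested with limma as Gata4hi minus Sox2hi (n = 3 each, adjusted p under 0.05 over all genes), so that their distance to the same fibroblasts depended on the gate. The log2 differences were 5.70 for *Ihh*, 4.70 for *dTomato*, 2.82 for *Sema3c*, 2.37 for *Sfrp1*, 2.07 for *Gfra1*, 1.73 for *Itga6*, 1.43 for *Foxa1*, 1.36 for *Tgfbr2*, 1.23 for *Krt18* and 1.15 for *Nrp1*. Smaller positive differences were 1.14 for *Plxnd1*, 1.09 for *Gas1*, 1.09 for *Krt8*, 1.0 for *Egfl7*, 0.88 for *Mt2*, 0.88 for *Pdgfb*, 0.84 for *Fgf9*, 0.66 for *Cxcl12*, 0.54 for *Erbb3*, 0.51 for *Cldn7*, 0.48 for *Cldn6*, 0.47 for *Erbb2* and 0.42 for *Igf1r*. Negative differences were -5.49 for *Dcn*, -2.74 for *Sema3a*, -2.71 for *Aldh1a2*, -2.51 for *Fgfr2*, -2.41 for *Twist1*, -2.15 for *Rnf43*, -1.64 for *Gli1*, -1.55 for *Pdgfrb* and -1.50 for *Shh*. Further negative differences were -1.15 for *Ptch1*, -1.12 for *Pdgfa*, -0.96 for *Pdgfc*, -0.89 for *Znrf3*, -0.82 for *Tgfb1*, -0.77 for *Fzd3*, -0.72 for *Cldn4*, -0.70 for *Fzd6*, -0.65 for *Sox2* and -0.35 for *EGFP*. The differences of the reporters and of *Sox2* follow from the gates.

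By Dixon's criterion, chance alone gives an outlying value at either end in about 1 in 20 groups drawn from a single normal population. The 8 epithelial libraries come from 3 gates and several FPKM values lie near 0, so this rate does not hold for them. Among these libraries, a single one stood above the others for 11 of the 111 genes named. These were *Pdgfra* at 1.34 FPKM in Gata4hi replicate 3 (next 0.725), *Col3a1* at 13.1 FPKM in Gata4hi replicate 3 (next 5.63), *Vim* at 24.8 FPKM in Gata4hi replicate 1 (next 17.2), *Fgf10* at 0.23 FPKM in Sox2hi replicate 2 (next 0.0928), *Wnt11* at 0.757 FPKM in Gata4hi replicate 2 (next 0.326), *Rspo1* at 0.246 FPKM in Sox2midGata4mid replicate 1 (next 0.115). Further cases were *Rspo2* at 0.113 FPKM in Sox2midGata4mid replicate 1 (next 0.00769), *Dkk2* at 0.12 FPKM in Gata4hi replicate 3 (next 0.0565), *Bmp4* at 4.23 FPKM in Sox2hi replicate 2 (next 1.89), *Nrg2* at 0.598 FPKM in Sox2hi replicate 3 (next 0.223) and *Mki67* at 97 FPKM in Sox2hi replicate 3 (next 78.4). *Pdgfra* and *Col3a1* were highest in the same library, Gata4hi replicate 3, and *Fgf10* and *Bmp4* in Sox2hi replicate 2; all stayed below both fibroblast libraries except *Mki67*, which is higher in epithelium.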

How the results depend on the processing

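No paired analysis was possible because the fibroblast libraries carry no replicate numbers to match the epithelial ones. Leaving out each library in turn gave 1446 to 2453 genes higher and 1708 to 3363 lower, 881 to 973 and 956 to 1199 of them shared; the lowest counts came without the proximal fibroblast library, where the lone fibroblast library is assumed to vary like the epithelium. With only the 4 libraries whose column names share 1 style (2 against 2), 956 were higher and 1444 lower, and 17 of the 111 named genes lost their call. Both fibroblast libraries are of this style, so style runs with compartment. A pseudocount of 5 FPKM gave 455 shared higher and 755 shared lower genes, and a mean of at least 5 FPKM 655 shared lower genes. The TPM scale gave 4353 higher and 1873 lower genes and 1586 shared higher genes, by its construction a shift of all genes. Of the alternatives chosen after seeing the data, Sox2hi cells alone gave 1766 shared lower and Gata4hi cells alone 1602 shared higher genes. Median-of-ratios scaling and dropping the trend changed no call of a named gene. Directions turned for *Igf2* (0.125 on the TPM scale, 0.30 with quantile normalization), for *Igf1r* (-0.079 in 1 label style, -0.077 without the proximal fibroblasts, -0.15 with Sox2hi cells, -0.08 to 0.20 leaving out a library), for *Erbb2* (-0.007 with Sox2hi cells) and for *Fgfr2* (-0.80 with Gata4hi cells); the cause was not tested. Left without a value as they missed the minimum were *Wnt11*, *Rspo1*, *Rspo2* and *Nrg2* without the proximal library, *Fgf10*, *Dkk2* and *Gdnf* without the distal library, *Wnt7b* in 1 label style, and 17 genes at a mean of 5 FPKM. Depth was lowest in the proximal fibroblasts (0.394 of Sox2hi replicate 1), so their low values are the least precise.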
